A study of Mus musculus with 15 samples.

Results

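The 33 genes described here are the erythroid genes for adult hemoglobin, heme synthesis, the red cell membrane and their regulators, and each was found in the count table by its symbol. A row was present for 32 of them among the 39827 genes read, and Ahsp was not analysed here. They were followed in 15 RNA-seq libraries, 3 in each of 5 groups, labelled as leukemic T cells from mouse spleen. In all groups, marrow progenitors that carried no lineage marker but had Kit and Sca1 were transduced with ΔE-NOTCH1, a shortened and constantly active NOTCH1, from a retrovirus marked with GFP. The transduced progenitors were then placed into C57BL/6J hosts after lethal irradiation. KO7 and KO3 are leukemias from Bcat1 knock-out progenitors, and the labels give PBS as their treatment. WT0 with ERG-245 is a Bcat1 wild-type leukemia whose carriers received the BCAT1 inhibitor ERG-245 into the peritoneum, 3 times at intervals of 8 h and at 30 mg per kg. WT6 is another wild-type leukemia given PBS, and WT0 with PBS is the vehicle group of the inhibitor. Each name (KO7, KO3, WT0, WT6) is taken here as 1 leukemia. It is not stated if the 3 libraries of a group were made from different mice, and no sort of the spleen cells is described in the labels.

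Red cell precursors fill with hemoglobin, made of alpha and beta globin chains that each hold heme, an iron-bearing ring built in the mitochondria and the cytosol. The transcription factors GATA1 and KLF1 switch on the globin, heme and membrane genes together during terminal maturation. In the adult mouse the spleen, along with the marrow, is a site where red cells are made, and its output grows in anemia.

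Sequences are shown for genes the results turn on, to let their proximal promoters be compared. They are the 250 bases before the transcript start in RefSeq on build GRCm38.p6, 5′ to 3′ on the strand of the gene. Capitals mark GATAAG, the form read by GATA factors, CACCC, the form read by KLF factors, and CCAAT, the box read by NF-Y, on either strand. Hbb-bs lies at chr7:103827929-103828178 (minus strand), Hbb-bt at chr7:103813924-103814173 (minus), Hba-a1 at chr11:32283422-32283671 (plus), Alas2 at chrX:150547167-150547416 (plus), Bpgm at chr6:34476106-34476355 (plus) and Kel at chr6:41704326-41704575 (minus).
Hbb-bs: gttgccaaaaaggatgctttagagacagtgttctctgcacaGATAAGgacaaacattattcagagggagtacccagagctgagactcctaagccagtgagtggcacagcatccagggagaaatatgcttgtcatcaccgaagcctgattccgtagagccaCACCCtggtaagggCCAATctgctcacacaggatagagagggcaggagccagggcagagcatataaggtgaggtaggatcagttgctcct
Hbb-bt: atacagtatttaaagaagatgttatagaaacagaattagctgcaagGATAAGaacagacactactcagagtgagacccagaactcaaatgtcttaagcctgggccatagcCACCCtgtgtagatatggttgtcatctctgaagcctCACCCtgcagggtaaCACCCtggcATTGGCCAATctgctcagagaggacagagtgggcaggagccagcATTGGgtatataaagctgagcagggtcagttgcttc
Hba-a1: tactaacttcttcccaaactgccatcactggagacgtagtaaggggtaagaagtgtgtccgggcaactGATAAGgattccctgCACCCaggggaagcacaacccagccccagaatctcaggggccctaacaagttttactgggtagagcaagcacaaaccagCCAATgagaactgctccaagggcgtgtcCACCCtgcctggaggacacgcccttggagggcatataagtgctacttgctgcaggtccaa
Alas2: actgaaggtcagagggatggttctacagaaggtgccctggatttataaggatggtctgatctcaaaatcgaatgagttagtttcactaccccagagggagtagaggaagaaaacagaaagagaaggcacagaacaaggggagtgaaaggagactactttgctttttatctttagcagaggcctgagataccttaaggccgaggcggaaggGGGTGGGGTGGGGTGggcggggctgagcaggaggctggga
Bpgm: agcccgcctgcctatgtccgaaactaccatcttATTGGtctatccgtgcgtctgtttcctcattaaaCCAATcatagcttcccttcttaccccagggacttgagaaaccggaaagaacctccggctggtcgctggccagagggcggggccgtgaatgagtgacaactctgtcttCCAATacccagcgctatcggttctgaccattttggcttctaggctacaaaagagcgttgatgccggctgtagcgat
Kel: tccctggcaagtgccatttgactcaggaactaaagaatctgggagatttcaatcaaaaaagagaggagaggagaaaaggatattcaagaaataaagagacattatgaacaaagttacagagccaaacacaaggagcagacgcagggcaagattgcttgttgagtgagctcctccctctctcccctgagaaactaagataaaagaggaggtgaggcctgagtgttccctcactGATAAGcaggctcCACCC

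The printed beta and alpha globin windows each held all of the marked motifs. In Hbb-bs the KLF motif began 90 bases and the CCAAT box 76 bases before the start, and in Hba-a1 the GATA motif began 182 bases before it. Kel held the GATA motif 18 bases before its start, Alas2 held 3 copies of the KLF motif on the opposite strand, and Bpgm held 3 CCAAT boxes and no other capitals. RefSeq windows of 300 bases (250 before to 50 after the start) were found for 24 of the genes. GATAAG stood in the windows of 14 of the 24 genes (58.3%), against 8.58% of 27025 genes with a window of that length. CACCC stood in 20 of the 24, against 59.8% of genes, CCAAT in 15 of the 24, against 41.1%, and TATAAA in 5 of the 24, against 15.7%. CCNCNCCC, where N is any base, stood in 15 of the 24 (62.5%), against 51.9%, and AGATAA in 10 of the 24, against 12.7%. A match of letters describes the window and is not a binding site as such.

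The globin genes come in near-identical pairs, so the split of counts within a pair is uncertain. The coding sequences of Hba-a1 and Hba-a2 (chromosome 11) have 429 bases and differ at 1 base, and those of Hbb-bs and Hbb-bt (chromosome 7) have 444 bases and differ at 1 base. Stretches of 30 bases around the differing base, in capitals, are shown from GENCODE transcripts of the same genome to make this visible.
Hba-a1: catgcctctctggaCaaattccttgcctct
Hba-a2: catgcctctctggaTaaattccttgcctct
Hbb-bs: gtggctggagtggcCgctgccctggctcac
Hbb-bt: gtggctggagtggcTgctgccctggctcac
The promoter windows of Hba-a1 and Hba-a2 are equal over 297 bases. No option for fragments with several matches stands in the authors' counting command, so values of single globin genes are given together with those of each pair summed.

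Library totals ran between 17441292 and 28902573 counts, with 19679 to 20968 genes detected. All 12 T cell markers looked at (among them Thy1, Lck and Cd8a) were detected in every group, with summed levels of 5354 to 5449 CPM in KO7, 5200 to 5274 in KO3, 3330 to 3363 in WT0 with ERG-245, 5643 to 5781 in WT6 and 4113 to 4149 in WT0 with PBS. CPM is the count scaled to a TMM-adjusted library total of 1e6. Bcat1, the targeted gene, averaged 2.08 ± 0.596 in KO7, 6.95 ± 0.844 in KO3, 13.3 ± 0.774 in WT0 with ERG-245, 35.2 ± 0.416 in WT6, and 17.8 ± 0.955 in WT0 with PBS (CPM, mean ± SD, n = 3 each), and it was lowest in the libraries of the knock-outs. The lowest count behind any of the 32 erythroid genes in any library was 112, for Trim58 in WT6.

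The 32 erythroid genes took 6.55 to 6.86% of all counts in KO7, 1.39 to 1.43% in KO3, 5.47 to 5.82% in WT0 with ERG-245, 1.43 to 1.59% in WT6 and 4.75 to 4.96% in WT0 with PBS. KO7 and both WT0 groups were high, and KO3 and WT6 were low, so that each genotype had a high and a low leukemia. For all 32 genes, every KO7 and WT0 library was above every KO3 and WT6 library. The 4 globin genes made up 66.7 to 73.7% of these counts. Without the globins, the share was 1.84 to 1.86% in KO7, 0.444 to 0.450% in KO3, 1.79 to 1.82% in WT0 with ERG-245, 0.418 to 0.421% in WT6 and 1.51 to 1.53% in WT0 with PBS. In RNA of a mixed tissue, fewer erythroid cells and less erythroid RNA per cell cannot be told apart.

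**Figure D1:**
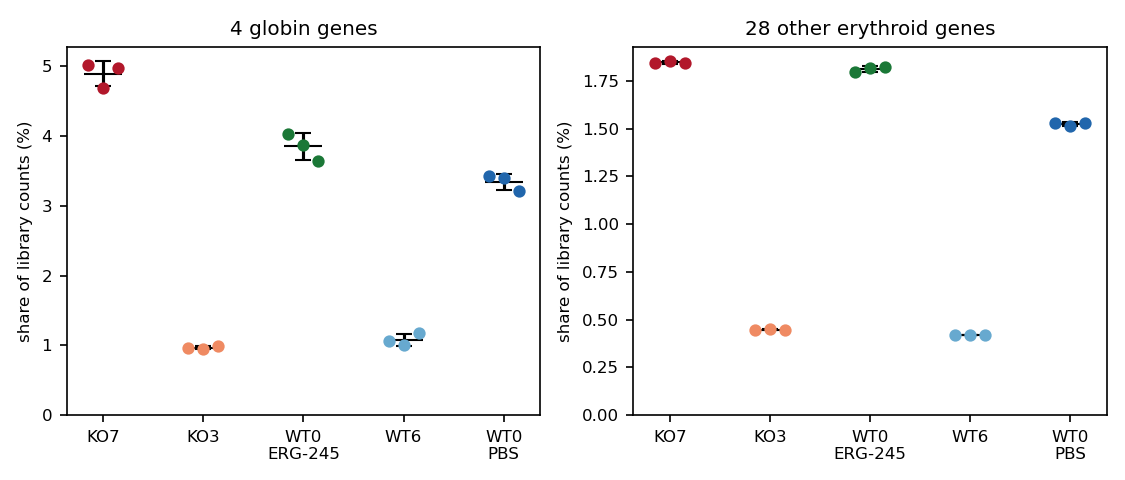
Share of each library's counts (%) taken by the 4 globin genes (left) and by the 28 other erythroid genes (right) in KO7, KO3, WT0 with ERG-245, WT6 and WT0 with PBS; each point is a library and the bars give mean ± SD of 3. The KO3 and WT6 libraries lie far below those of the other groups in both panels.

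Within a group the median coefficient of variation was 2.00% over genes and groups. The globins varied most: Hba-a2 reached 33.4% in KO7, 28.3% in WT6 and 12.5% in WT0 with PBS, Hba-a1 10.3% in WT6, Hbb-bs 9.68% in WT6 and Hbb-bt 8.17% in WT6. Of the other genes, Trim58 had the highest, 6.36% in WT0 with ERG-245. The highest mean stood in WT0 with ERG-245 for 19 genes, in KO7 for 12 and in WT0 with PBS for Kel. The lowest mean stood in WT6 for 23 genes and in KO3 for 9, the 4 globins, Gata1, Nfe2, Hemgn, Car1 and Bpgm.

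Hbb-bs, an adult beta globin, had the highest level per length of all members in each group. It had 25670, 23876 and 24268 in KO7, 5080, 5024 and 5474 in KO3, 23366, 22120 and 19828 in WT0 with ERG-245, 5394, 5224 and 6239 in WT6, and 18562, 17775 and 17241 in WT0 with PBS (CPM). The low groups did not overlap the others, and KO3 (5024 to 5474) overlapped WT6 (5224 to 6239). Hbb-bt, the other adult beta globin of this haplotype, had 6918, 6862 and 6780 in KO7, 1325, 1174 and 1264 in KO3, 7214, 6943 and 6716 in WT0 with ERG-245, 1249, 1353 and 1470 in WT6, and 4580, 4894 and 4590 in WT0 with PBS CPM. Here WT0 with ERG-245 overlapped KO7 and stood apart from WT0 with PBS.

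The alpha globin Hba-a1 had 11374, 12585 and 11100 in KO7, 2081, 1907 and 1899 in KO3, 7840, 7899 and 8007 in WT0 with ERG-245, 2060, 2203 and 2514 in WT6, and 6835, 7355 and 6965 in WT0 with PBS CPM. KO7 was above all other groups, and WT0 with ERG-245 was above WT0 with PBS in every library. Its near copy Hba-a2 had 6639, 3802 and 7718 in KO7, 934, 1039 and 921 in KO3, 4231, 4053 and 3975 in WT0 with ERG-245, 1495, 859 and 1076 in WT6, and 4542, 4264 and 3544 in WT0 with PBS CPM. The libraries of KO7 and of WT6 disagreed among themselves for Hba-a2, and KO7 replicate 2 lay below both other KO7 libraries and within the range of the WT0 groups. Hba-a2 took 23.2 to 42.1% of alpha globin counts over the 15 libraries, and Hbb-bt took 18.8 to 25.3% of beta globin counts. Counts of beta over alpha globin were 1.78 ± 0.116 in KO7, 2.21 ± 0.159 in KO3, 2.39 ± 0.162 in WT0 with ERG-245, 2.05 ± 0.161 in WT6 and 2.02 ± 0.0641 in WT0 with PBS (SD, n = 3 each). These ratios were not tested. The 4 embryonic globin genes Hba-x, Hbb-y, Hbb-bh1 and Hbb-bh2 summed to at most 1.11 CPM in any library, and they stood at 0 in KO3 except for Hbb-y.

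Alas2, the erythroid enzyme of the first step of heme synthesis, had 2083, 2132 and 2099 in KO7, 359, 351 and 360.1 in KO3, 1376, 1403 and 1395 in WT0 with ERG-245, 335, 325 and 339 in WT6, and 1126, 1128 and 1136 in WT0 with PBS CPM. It was highest in KO7, above WT0 with ERG-245, which in turn was above WT0 with PBS, with no overlap. Fech (chromosome 18), which puts iron into the ring in the last step, had 752, 741 and 747 in KO7, 172, 171 and 173 in KO3, 896, 909 and 915 in WT0 with ERG-245, 156, 155 and 157 in WT6, and 547, 539 and 555 in WT0 with PBS CPM. Here WT0 with ERG-245, not KO7, was highest. The middle enzymes of the path lay closer together: Cpox averaged 382 ± 5.41 in KO7, 131 ± 3.58 in KO3, 513 ± 5.15 in WT0 with ERG-245, 122 ± 2.88 in WT6, and 388 ± 9.35 in WT0 with PBS CPM (mean ± SD, n = 3 each), and Urod averaged 291 ± 12.9 in KO7, 112 ± 1.64 in KO3, 322 ± 10.5 in WT0 with ERG-245, 90.0 ± 5.21 in WT6, and 250.1 ± 6.54 in WT0 with PBS CPM. Slc25a37, mitoferrin, which carries iron into mitochondria, averaged 1340 ± 23.6 in KO7, 328 ± 5.03 in KO3, 1535 ± 14 in WT0 with ERG-245, 294 ± 0.933 in WT6, and 1493 ± 24.5 in WT0 with PBS CPM. Tfrc, the transferrin receptor, which proliferating cells of other kinds also carry, had 1160, 1191 and 1229 in KO7, 494, 521 and 494 in KO3, 1474, 1468 and 1423 in WT0 with ERG-245, 436, 449.6 and 418 in WT6, and 1131, 1107 and 1132 in WT0 with PBS CPM. Its high and low groups stood nearer to each other than those of any other member in the comparison of KO7 with WT6.

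Slc4a1, the anion exchanger band 3 and the main protein of the red cell membrane, had 3225, 3197 and 3163 in KO7, 577, 578 and 585 in KO3, 3953, 4032 and 4068 in WT0 with ERG-245, 540.0, 555 and 560.1 in WT6, and 3013, 2954 and 2978 in WT0 with PBS CPM. WT0 with ERG-245 was above KO7 and WT0 with PBS in every library. Kel, the Kell blood group protein, had 249.7, 253 and 258 in KO7, 55.7, 55.1 and 57.1 in KO3, 339, 344 and 338 in WT0 with ERG-245, 46.8, 49.2 and 45.5 in WT6, and 355, 354 and 361 in WT0 with PBS CPM. It was the gene for which WT0 with PBS was highest, and KO7 was below both WT0 groups. Epb41 (protein 4.1, which ties the skeleton to the membrane) averaged 1091 ± 21.2 in KO7, 322 ± 5.23 in KO3, 1074 ± 9.6 in WT0 with ERG-245, 273 ± 6.35 in WT6, and 713 ± 8.98 in WT0 with PBS CPM, so that KO7 and WT0 with ERG-245 were close together and above WT0 with PBS. Ank1 (ankyrin) averaged 416 ± 6.77 in KO7, 85.8 ± 2.46 in KO3, 561 ± 12.4 in WT0 with ERG-245, 77.3 ± 0.876 in WT6, and 472 ± 3.32 in WT0 with PBS CPM. Sptb (beta spectrin) averaged 401 ± 9.11 in KO7, 97.7 ± 0.56 in KO3, 529 ± 10.7 in WT0 with ERG-245, 91.1 ± 2.11 in WT6, and 499.7 ± 5.39 in WT0 with PBS CPM. Epb42 (protein 4.2) averaged 279.8 ± 7.45 in KO7, 57.3 ± 1.8 in KO3, 260.3 ± 4.23 in WT0 with ERG-245, 54.5 ± 1.62 in WT6, and 267 ± 6.36 in WT0 with PBS CPM. Ank1 and Sptb were highest in WT0 with ERG-245 and lower in KO7 than in WT0 with PBS, while Epb42 lay close together in KO7 and both WT0 groups. Rhag, a partner of the Rh proteins, averaged 355 ± 10.4 in KO7, 75.9 ± 0.979 in KO3, 429 ± 7.87 in WT0 with ERG-245, 72.7 ± 2.08 in WT6, and 263 ± 6.19 in WT0 with PBS CPM, and the Rh protein gene Rhd 233 ± 9.16 in KO7, 51 ± 1.56 in KO3, 259 ± 4.56 in WT0 with ERG-245, 47.2 ± 1.61 in WT6, and 227 ± 2.11 in WT0 with PBS CPM. Ermap, a membrane protein of erythroid cells, averaged 458 ± 2.1 in KO7, 106 ± 2.07 in KO3, 541 ± 6.61 in WT0 with ERG-245, 91.9 ± 1.31 in WT6, and 526 ± 3.6 in WT0 with PBS CPM. Rhag separated KO7 and WT0 with ERG-245 from WT0 with PBS, whereas Ermap was lower in KO7 than in both WT0 groups.

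Gata1, the transcription factor that drives red cell maturation, had 114, 112 and 106 in KO7, 26.5, 29.1 and 28.1 in KO3, 140.3, 146 and 149 in WT0 with ERG-245, 27.5, 29.2 and 27.2 in WT6, and 92.4, 92.7 and 92.9 in WT0 with PBS CPM. The KO3 and WT6 libraries overlapped, and WT0 with ERG-245 stood above KO7 and both above WT0 with PBS. Klf1, the activator of adult beta globin, had 166, 165 and 165 in KO7, 38.1, 37.1 and 40.4 in KO3, 164, 161 and 174 in WT0 with ERG-245, 37.1, 39.2 and 37.5 in WT6, and 146, 149.8 and 145 in WT0 with PBS CPM. KO7 and WT0 with ERG-245 overlapped. Epor, the erythropoietin receptor, averaged 99.4 ± 3.46 in KO7, 26.4 ± 0.952 in KO3, 138 ± 1.77 in WT0 with ERG-245, 23.6 ± 1.23 in WT6, and 102 ± 2.42 in WT0 with PBS CPM. Nfe2, a factor that acts on the beta globin locus, averaged 149 ± 3.89 in KO7, 31 ± 0.954 in KO3, 171 ± 3.73 in WT0 with ERG-245, 32.5 ± 1.08 in WT6, and 126 ± 6 in WT0 with PBS CPM, and Hemgn, hemogen, a nuclear protein of erythroid cells, 416 ± 3.68 in KO7, 97.6 ± 1.35 in KO3, 484 ± 4.02 in WT0 with ERG-245, 97.9 ± 4.16 in WT6, and 444 ± 4.94 in WT0 with PBS CPM.

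Car1, the carbonic anhydrase typical of red cells, had 468, 481 and 475 in KO7, 125, 133 and 125 in KO3, 422, 412 and 410.1 in WT0 with ERG-245, 132, 131 and 136 in WT6, and 207, 201 and 208 in WT0 with PBS CPM. WT0 with PBS was only moderately above KO3 and WT6, unlike KO7 and WT0 with ERG-245. Bpgm, which makes the bisphosphoglycerate that lowers the oxygen affinity of hemoglobin, had 722, 704 and 695 in KO7, 122, 127 and 125 in KO3, 348, 355 and 365 in WT0 with ERG-245, 149, 153 and 151 in WT6, and 278, 280.0 and 274 in WT0 with PBS CPM. KO7 stood above every other group, and KO3 was below WT6 in every library. Car2, a carbonic anhydrase with wider use, averaged 1663 ± 10.4 in KO7, 374 ± 5.87 in KO3, 1346 ± 24.8 in WT0 with ERG-245, 348 ± 7.54 in WT6, and 1130 ± 6.63 in WT0 with PBS CPM. Slc6a9, the glycine transporter that brings in a substrate of heme synthesis, averaged 142 ± 5.09 in KO7, 26.1 ± 1.45 in KO3, 176 ± 2.28 in WT0 with ERG-245, 25.8 ± 1.09 in WT6, and 146 ± 1.72 in WT0 with PBS CPM. Among genes of late maturation, Xpo7, a nuclear exporter, had 673, 672 and 658 in KO7, 224, 228 and 232 in KO3, 488, 499.6 and 493 in WT0 with ERG-245, 222, 209 and 219 in WT6, and 586, 569 and 581 in WT0 with PBS CPM, so that WT0 with ERG-245 was below WT0 with PBS. Tmcc2, a transmembrane protein with coiled coils, averaged 890.0 ± 7.84 in KO7, 138 ± 3.15 in KO3, 769 ± 7.04 in WT0 with ERG-245, 132 ± 3.37 in WT6, and 579.6 ± 6.26 in WT0 with PBS CPM. The ubiquitin ligase genes Trim10 and Trim58 averaged 311 ± 8.93 in KO7, 65.6 ± 3.38 in KO3, 309 ± 6.09 in WT0 with ERG-245, 61.7 ± 0.196 in WT6, and 271 ± 3.94 in WT0 with PBS CPM for Trim10 and 26 ± 1.01 in KO7, 6.53 ± 0.158 in KO3, 40.6 ± 2.58 in WT0 with ERG-245, 5.32 ± 0.334 in WT6, and 32.5 ± 0.82 in WT0 with PBS CPM for Trim58, which had the lowest level per length of the 32 genes in each group.

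**Figure D2:**
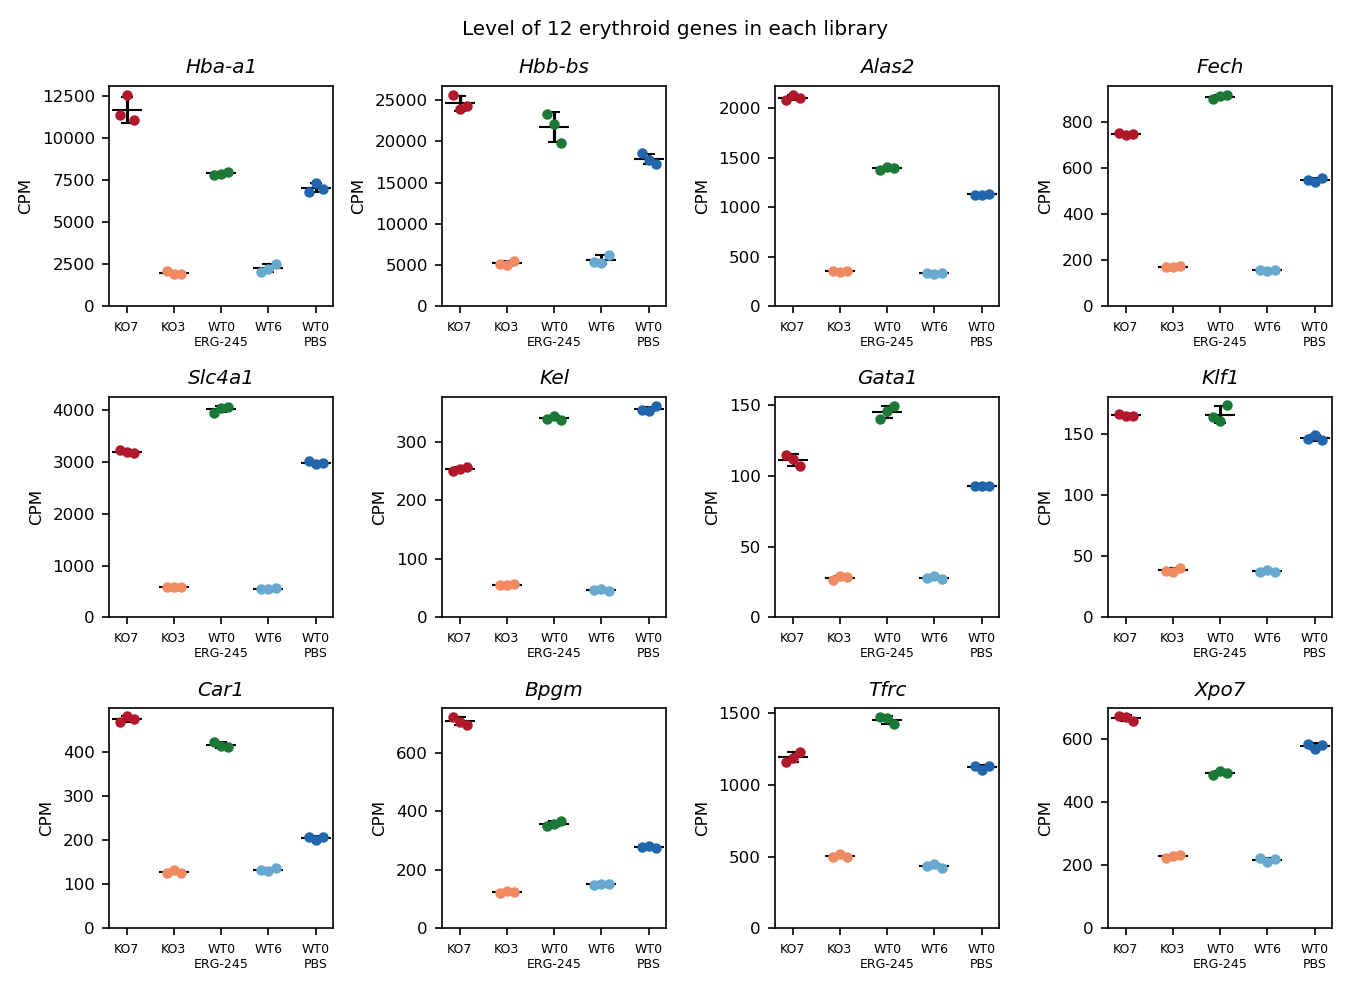
CPM of 12 of the erythroid genes in each library of KO7, KO3, WT0 with ERG-245, WT6 and WT0 with PBS, left to right; points are libraries, bars are mean ± SD of 3, and each axis starts at 0. KO3 and WT6 are low in every panel, while the order of the other groups changes from gene to gene, with KO7 highest for Bpgm and WT0 with PBS highest for Kel.

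The comparison of KO7 with WT6 asks how these genes differ between a knock-out and a wild-type leukemia. All 32 were higher in KO7 by edgeR's quasi-likelihood test (Benjamini-Hochberg adjusted p under 0.05 over 15948 genes). Of all genes tested, 32.2% were higher and 36.7% lower. The median log2 fold change of the 32 was 2.26, a 4.78-fold difference, against a median of -0.03 over all genes tested. Each of the 32 was at least 2-fold higher, as were 9.29% of all genes. The range ran from 1.46 for Tfrc to 2.75 for Tmcc2. Alas2 was higher by a log2 of 2.66 ± 0.023 (± SE; edgeR adjusted p = 1.67e-80) and Slc4a1 by 2.53 ± 0.023. Alpha globin (Hba-a1 plus Hba-a2) was higher by 2.38 ± 0.033 and beta globin (Hbb-bs plus Hbb-bt) by 2.17 ± 0.032. Gata1 was higher by 1.99 ± 0.041 and Klf1 by 2.13 ± 0.036. Xpo7 (1.62 ± 0.024), Cpox (1.65 ± 0.026) and Urod (1.69 ± 0.031) were among the least raised. The p-values of this fit rest on the variation among libraries of 1 leukemia, part or all of which may be technical. The other comparisons of groups come from the same fit.

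KO3 set against WT6, the other knock-out against the same libraries, gave small differences in both directions. Of the 32, 19 were higher in KO3 (27.7% of all genes tested were), 5 were lower (32% were) and 8 did not pass. The median log2 fold change was 0.08, and none reached 2-fold in either direction (4.04% of all genes did so upward and 7.46% downward). All 6 heme and iron genes were higher, led by Urod (0.31 ± 0.034, edgeR adjusted p = 1.24e-12), as were 7 of 9 membrane genes, led by Kel (0.25 ± 0.037) and Epb41 (0.24 ± 0.024). Those lower were all 4 globins and Bpgm, the last with -0.28 ± 0.028 (edgeR adjusted p = 2.33e-14). The log2 fold change was -0.20 ± 0.034 for Hba-a1 and -0.25 ± 0.098 for Hba-a2, or -0.22 ± 0.031 for alpha globin as a pair. It was -0.11 ± 0.035 for Hbb-bs and -0.11 ± 0.031 for Hbb-bt, or -0.11 ± 0.031 for beta globin as a pair. Gata1 (-0.0019 ± 0.051), Klf1 (0.02 ± 0.044), Nfe2 (-0.07 ± 0.049) and Hemgn (-0.01 ± 0.03) did not pass. The globin differences depend on the libraries and the tool: without WT6 replicate 3 the beta globins did not pass and 3 genes were lower, and the Wald test of DESeq2 called 2 lower, Hba-a1 and Bpgm.

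**Figure D3:**
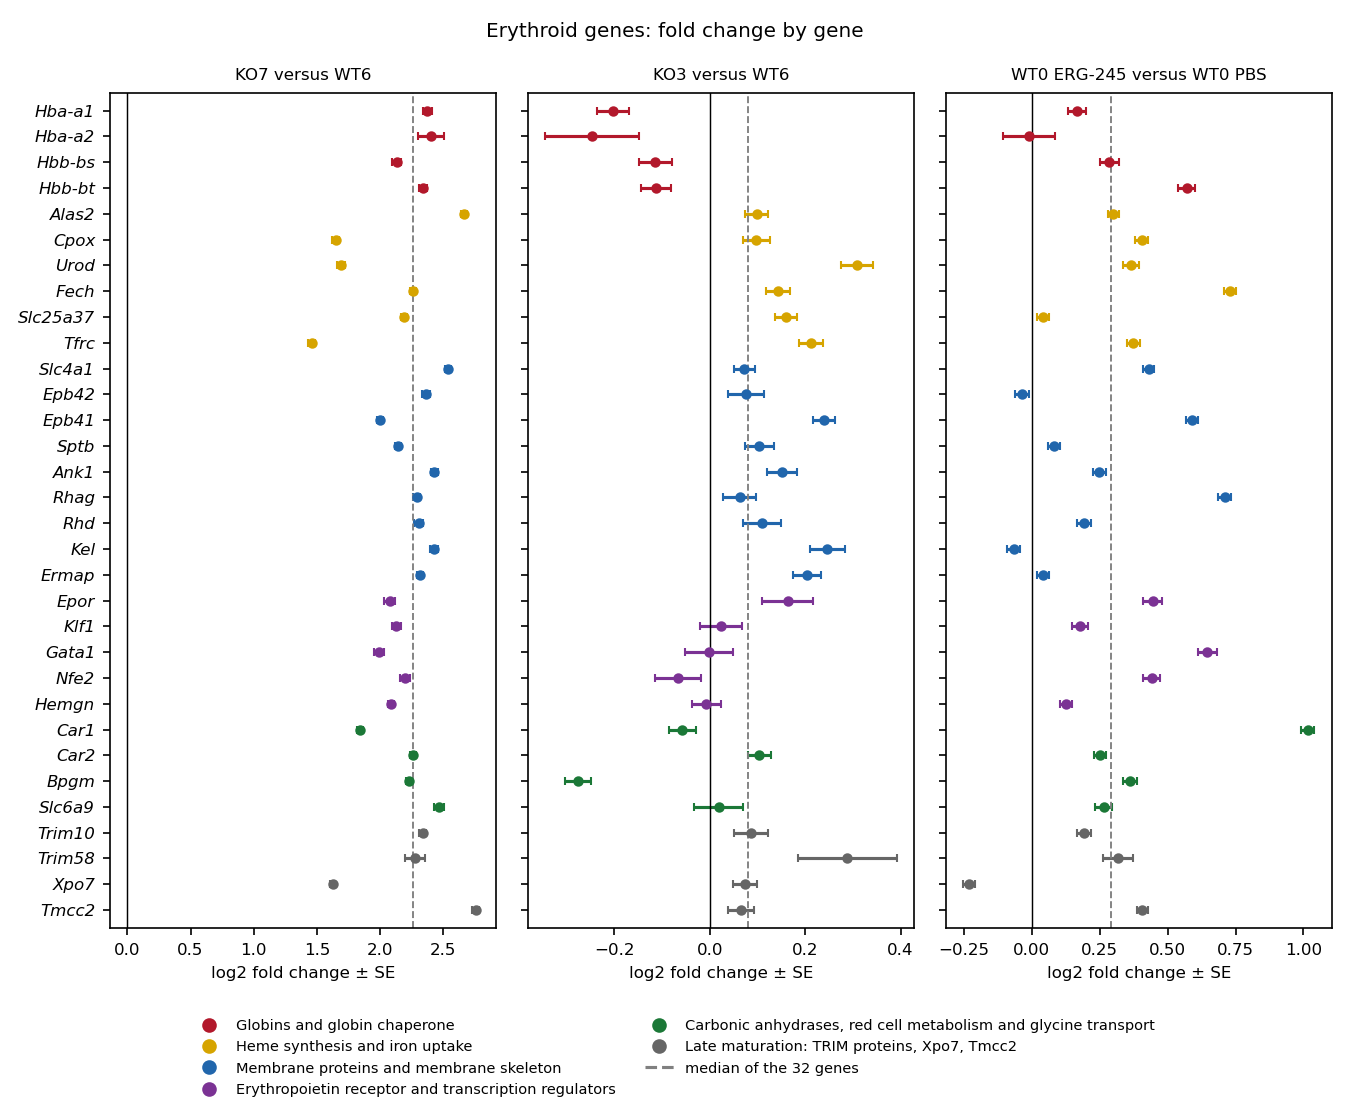
Log2 fold change ± SE (edgeR) of each of the 32 genes, in rows grouped by role, for KO7 over WT6 (left), KO3 over WT6 (middle) and WT0 with ERG-245 over WT0 with PBS (right); the axes differ in scale and the dashed line is the median of the 32. The median is 2.26 on the left, 0.08 in the middle, where the 4 globins and Bpgm lie left of 0, and 0.29 on the right, where Car1 is farthest from 0.

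Set directly against KO3, KO7 was higher in all 32 genes (34.6% of all genes tested were higher and 36.1% lower), with a median log2 fold change of 2.17 and a range from 1.24 for Tfrc to 2.69 for Tmcc2. All 32 were at least 2-fold higher, as were 12.3% of all genes. Bpgm differed by 2.51 ± 0.025, Hba-a1 by 2.57 ± 0.036 and Alas2 by 2.56 ± 0.023. WT6 set against WT0 with PBS was a comparison within the wild type, and all 32 were lower in WT6 (35.6% of all genes were lower and 36.8% higher), with a median of -1.90. There, 30 were at least 2-fold lower, as were 9.74% of all genes. The range ran from -2.92 for Kel to -0.63 for Car1, and the other gene under 2-fold was Bpgm (-0.88 ± 0.025). Markers of some other cells were mostly higher in WT6 than in WT0 with PBS. These were 7 of 7 neutrophil markers tested (median log2 2.40), 7 of 8 B and plasma cell markers (1.03) and 5 of 6 mast cell and basophil markers (3.10). Red pulp macrophage markers were higher for 8 of 12 (0.32, with 2 lower). Of 12 platelet and megakaryocyte markers, 3 were higher and 3 lower (0.03). Of 8 stem and progenitor markers, 2 were higher and 1 lower (0.07). Their part in this result was not tested.

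When the 3 libraries of each leukemia were summed and the 2 knock-out leukemias set against the 2 wild-type leukemias given PBS, none of the 32 passed with edgeR, and none had an unadjusted p under 0.05. No gene of 17226 passed (0%), and DESeq2 called 0 of the 32 as well. The median log2 fold change of the 32 was 0.19, and single genes ran from -0.37 ± 1.1 for Kel to 0.97 ± 0.83 for Bpgm (log2 ± SE). The standard errors of about 1 for most genes are as large as a 2-fold difference, so a difference between genotypes of that size was not detectable with 2 leukemias each.

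**Figure D4:**
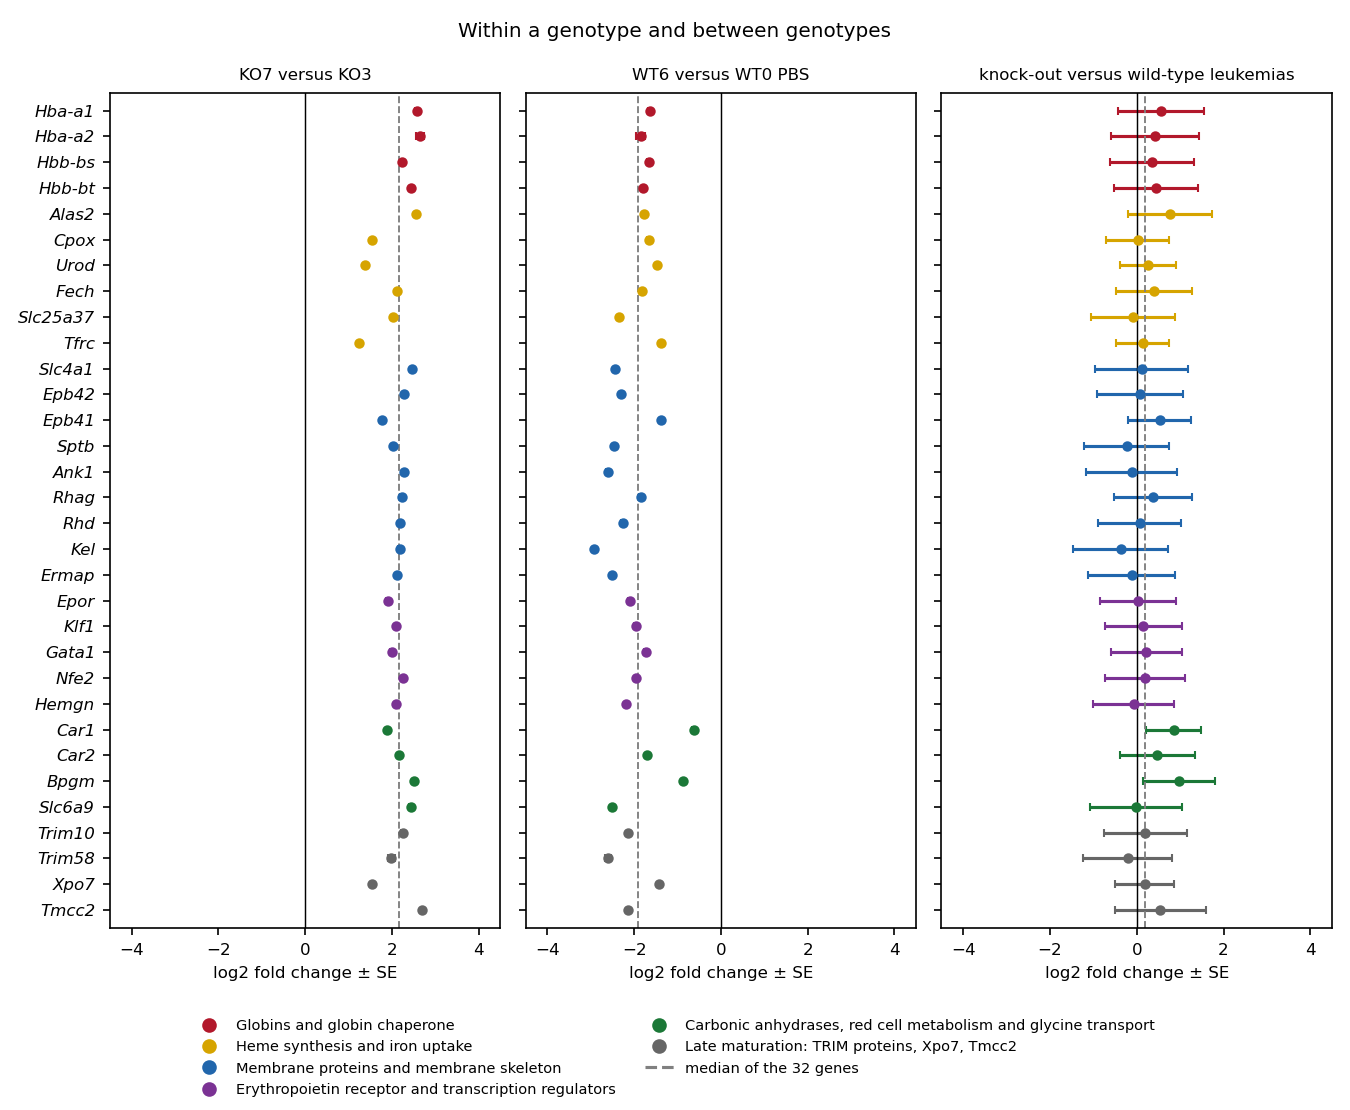
Log2 fold change ± SE (edgeR) of the 32 genes for KO7 over KO3 (left), WT6 over WT0 with PBS (middle) and the knock-out over the wild-type leukemias with libraries summed (right), all on 1 scale; the dashed line is the median of the 32. The genes lie around 2.17 and -1.90 in the comparisons within a genotype, and around 0.19 with error bars that mostly cross 0 between genotypes.

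KO7 set against WT0 with PBS, both high in erythroid RNA, had differences that varied with the gene. Of the 32, 21 were higher in KO7 (34.5% of all genes tested were), 7 were lower (34.9% were) and 4 did not pass, with a median log2 fold change of 0.20. The standard deviation over the 32 genes was 0.429, against 0.294 for KO7 over WT6. It was 0.468 for KO3, 0.507 for WT6 and 0.262 for WT0 with ERG-245, each over WT0 with PBS. Bpgm (1.35 ± 0.023, edgeR adjusted p = 5.79e-60) and Car1 (1.21 ± 0.025) were the 2 genes at least 2-fold higher, as were 8.64% of all genes. Alas2 (0.90 ± 0.021), alpha globin as a pair (0.67 ± 0.031), Tmcc2 (0.62 ± 0.022), Epb41 (0.61 ± 0.022), Car2 (0.56 ± 0.022) and beta globin as a pair (0.48 ± 0.031) were also higher. The 7 lower were Kel (-0.49 ± 0.025, edgeR adjusted p = 5.99e-30), Trim58 (-0.33 ± 0.06), Sptb (-0.32 ± 0.023), Ermap (-0.20 ± 0.022), Ank1 (-0.18 ± 0.023), Slc25a37 (-0.16 ± 0.021) and Hemgn (-0.09 ± 0.023). Of the 9 membrane genes, 4 were higher and 4 lower. Epb42 (0.07 ± 0.026) passed with all libraries but not without WT0 with PBS replicate 2 or 3 or KO7 replicate 1 or 2.

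KO3 set against WT0 with PBS was lower in all 32 (32.4% of all genes were lower and 34.1% higher), with a median of -1.94, and 31 were at least 2-fold lower, as were 7.8% of all genes. The exception was Car1, at -0.69 ± 0.028, and the lowest was Kel, at -2.67 ± 0.03. The 4 comparisons with WT0 with PBS share its libraries, so their values are given side by side without a test of likeness. Relative to the median of the 32 genes, Car1 stood 1.01 higher (log2) in KO7, 1.25 in KO3, 0.72 in WT0 with ERG-245 and 1.27 in WT6. Bpgm stood 1.15 higher in KO7, 0.78 in KO3, 0.07 in WT0 with ERG-245 and 1.02 in WT6. Kel stood at -0.70 in KO7, -0.74 in KO3, -0.36 in WT0 with ERG-245 and -1.02 in WT6. Set against WT6 instead, Car1 stood at -0.42 in KO7 and -0.14 in KO3, Bpgm at -0.03 and -0.36, and Kel at 0.17 in each.

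**Figure D5:**
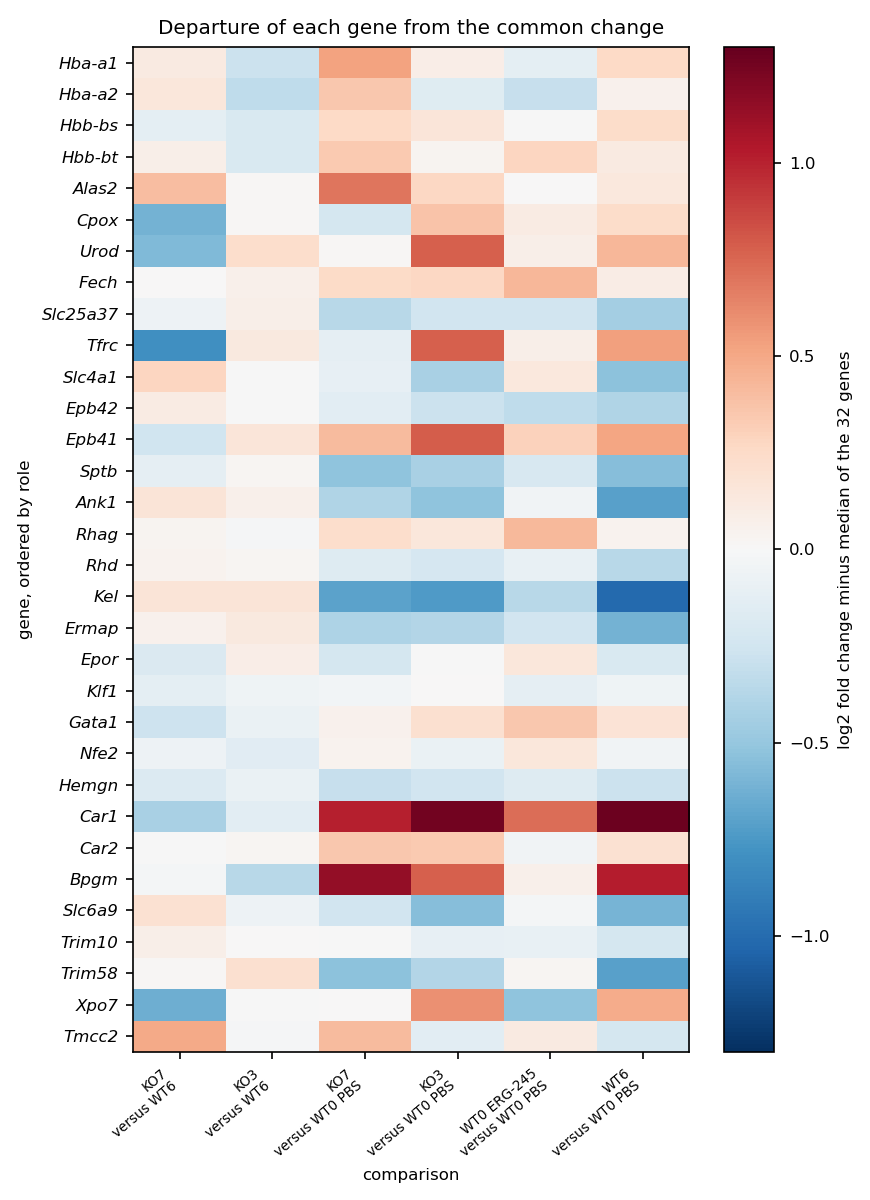
Log2 fold change of each of the 32 genes (rows, ordered by role) minus the median of the 32 in the same comparison (columns, of which 4 share WT0 with PBS and 2 share WT6); red is above and blue below the median. Car1 and Kel lie on opposite sides of the median in the 4 comparisons with WT0 with PBS, with Car1 up to 1.27 above and Kel down to -1.02. In the 2 comparisons with WT6 their sides are exchanged.

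The inhibitor was tested within 1 leukemia, WT0 with ERG-245 against WT0 with PBS. Here too the p-values rest on the variation among the 3 libraries of a group, part or all of which may be technical. It is not stated if those libraries came from different mice. Most erythroid genes were modestly higher after ERG-245: 26 of the 32 were higher (33% of all genes tested were), 2 were lower (32.8% were) and 4 did not pass, with a median log2 fold change of 0.29, or 1.23-fold. Only Car1 was at least 2-fold higher, at 1.02 ± 0.025 (edgeR adjusted p = 2.89e-49), as were 5.67% of all genes. Fech (0.73 ± 0.021), Rhag (0.71 ± 0.025), Gata1 (0.65 ± 0.034), Epb41 (0.59 ± 0.022) and Hbb-bt (0.57 ± 0.03) followed. All 5 of the receptor and transcription factor genes were higher, with Nfe2 at 0.44 ± 0.032, Epor at 0.44 ± 0.034, Klf1 at 0.18 ± 0.03 and Hemgn at 0.12 ± 0.023. Of the heme and iron genes 5 of 6 were higher, among them Cpox (0.40 ± 0.023), Tfrc (0.37 ± 0.024), Urod (0.37 ± 0.028) and Alas2 (0.30 ± 0.022). Those lower were Xpo7 (-0.23 ± 0.023, edgeR adjusted p = 7.36e-15) and Kel (-0.07 ± 0.024), and Kel did not pass without WT0 with PBS replicate 3, which left 1 gene lower. Hba-a2 (-0.01 ± 0.095), Slc25a37 (0.04 ± 0.021), Ermap (0.04 ± 0.022) and Epb42 (-0.04 ± 0.026) did not pass. Alpha globin as a pair was higher by 0.10 ± 0.031 and beta globin as a pair by 0.35 ± 0.031. Of the 12 T cell markers, 4 were higher and 7 lower after ERG-245 (median log2 -0.22), and their part in this result was not tested.

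A list of 32 other erythroid genes was counted in the same comparisons. Of all genes tested, 32.2% were higher and 36.7% lower in KO7 against WT6, and 27.7% and 32% in KO3 against WT6. These shares were 34.5% and 34.9% in KO7 against WT0 with PBS, and 33% and 32.8% after ERG-245. In KO7 34.6% were higher than in KO3, and 35.6% were lower in WT6, and 32.4% in KO3, than in WT0 with PBS. In KO7 against WT6 all 32 were higher (median log2 2.06), with Aqp1, a water channel, at 2.14 ± 0.024. KO3 against WT6 gave 16 higher and 4 lower (median 0.10), the 4 being Tmod1, Lmo2, Cited4 and Tent5c. KO7 against WT0 with PBS gave 18 higher and 10 lower (0.13), and WT0 with ERG-245 against WT0 with PBS 25 higher and 6 lower (0.38). All 32 were higher in KO7 than in KO3, and all 32 were lower in WT6, and in KO3, than in WT0 with PBS. Of 16 other heme and mitochondrial iron genes, 13 were higher and 1 lower (Flvcr1, a heme exporter, -0.35 ± 0.048) in KO7 than in WT6. Alas1, the form of the first enzyme used outside the red cell line, did not pass, at 0.05 ± 0.06. After ERG-245, 11 of the 16 were higher and 2 lower than with PBS.

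Markers of other cells moved too. Red pulp macrophages, which take up old red cells, were followed by 12 markers, among them Vcam1, Hmox1 and Csf1r. Their summed level was 4158 to 4179 CPM in KO7, 1542 to 1559 in KO3, 1746 to 1761 in WT0 with ERG-245, 1773 to 1826 in WT6 and 1278 to 1306 in WT0 with PBS, and none was at 0 in any group. All 12 were higher in KO7 than in WT6, KO3 or WT0 with PBS, and 9 were higher and 0 lower after ERG-245. Of all genes tested, 32.2% were higher in KO7 than in WT6, 34.6% than in KO3 and 34.5% than in WT0 with PBS. After ERG-245, 33% of all genes were higher and 32.8% lower. Hmox1 is also on the heme list. Stroma and endothelium markers summed to 366 to 373 CPM in KO7, 211 to 218 in KO3, 266 to 269 in WT0 with ERG-245, 272 to 278 in WT6 and 201 to 208 in WT0 with PBS, and 6 of 6 were higher after ERG-245. Their part in the results above was not tested.

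The 12 platelet and megakaryocyte markers, among them Ppbp, Itga2b and Pf4, summed to 142 to 146 CPM in KO7, 158 to 163 in KO3, 30.0 to 34.1 in WT0 with ERG-245, 186 to 189 in WT6 and 177 to 188 in WT0 with PBS. In KO7, 2 were higher and 7 lower than in WT6 (32.2% of all genes tested were higher and 36.7% lower). After ERG-245 all 12 were lower (median log2 -3.96), and so were 6 of 7 neutrophil markers tested (median -4.22) and 32.8% of all genes tested. The sum of the neutrophil markers was 2.99 to 4.43 CPM with ERG-245, against 66.0 to 67.8 with PBS. Ly6g had 0 counts in the ERG-245 libraries but only 0, 1 and 3 in those of WT0 with PBS, so it shows no fall. B and plasma cell markers summed to 4070 to 4135 CPM in KO7, 2834 to 2887 in KO3, 3480 to 3549 in WT0 with ERG-245, 8390 to 8744 in WT6 and 1308 to 1324 in WT0 with PBS, so that WT6 was highest. The neutrophil markers summed to 121 to 127 CPM in KO7, 169 to 174 in KO3 and 311 to 332 in WT6. In KO7, all 7 neutrophil markers tested and 7 of 8 B and plasma cell markers were lower than in WT6. In KO3 against WT6, where the erythroid genes moved little, 8 of 8 B and plasma cell markers and 7 of 7 neutrophil markers were lower. So were 8 of 12 red pulp macrophage markers and 32% of all genes tested. Of the 12 T cell markers, 3 were higher and 9 lower in KO7 than in WT6, and 4 higher and 8 lower in KO3 than in WT6. Stem and progenitor markers summed to 372 to 383 CPM in KO7, 380 to 387 in KO3, 280 to 298 in WT0 with ERG-245, 376 to 386 in WT6 and 381 to 392 in WT0 with PBS. Mast cell and basophil markers summed to at most 35.3 CPM in any library. Their part in the results was not tested either.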

How the data were processed

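Polyadenylated RNA was sequenced with a stranded library kit, per the labels' protocols. The deposited values are raw counts per gene: the authors counted with featureCounts 2.0.1, per the file headers, on paired fragments with both ends mapped, a minimum overlap of 25 bases and strand setting 2, on RefSeq genes of GRCm38.p6. STAR, Trim Galore, DESeq2, Subread and mm10 stand in the submitters' processing notes. The alignment names of the WT0 libraries with PBS contain DMSO in the file header, whereas the labels say PBS. The deposited gene lengths (merged exons in bases, another unit) served only for levels per length. Broken lines removed Huwe1, Mycbp2 and Neb, and 84 IDs had no symbol.

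Genes kept by filterByExpr were scaled with TMM and tested in edgeR 4.0.16 (limma 3.58.1, R 4.3.3; quasi-likelihood, 15 libraries in 1 fit by group, Benjamini-Hochberg adjusted p under 0.05), and the same was done on counts summed per leukemia. The fits were tested on simulated data. The 15 pairs of libraries within groups differed by more than counting noise (chi-square per gene 1.57 to 3.54), so none were merged. Alternatives were DESeq2's size factors, scaling without the 32 genes, library totals only, no filter, shares without the globins, WT0 summed over PBS and ERG-245, a 2-fold minimum, DESeq2 1.42.0, pairwise fits, a replicate block, each library left out, and globin pairs summed (chosen after seeing the data). Genes named outside the 33 are Bcat1, the 3 most abundant of a list (by their level over all libraries) and, where 5 or fewer, those against its majority; Alas1 and Ly6g were named after their values were seen, and some genes that the rule names are not reported here. The 33 genes and all lists were chosen with earlier results of these data known.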

Additional observations from a re-analysis of the deposited data

Results flagged for a closer look

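The difference from WT6 was not the same in the knock-outs: in a test of that difference (KO7 against KO3, edgeR), 32 of the 32 erythroid genes passed. Of all genes tested, 34.6% were higher and 36.1% lower in KO7. It is the same test as the direct comparison of KO7 with KO3 given above. For 5 of the 32 genes KO7 was higher and KO3 lower than WT6. Their log2 fold changes of KO7 over KO3 were 2.57 for Hba-a1, 2.65 for Hba-a2, 2.24 for Hbb-bs, 2.45 for Hbb-bt and 2.51 for Bpgm. Of all genes tested, 32.2% were higher in KO7 than in WT6 and 32% were lower in KO3 than in WT6. The share of all genes that did both was not counted. All of the 5 genes but Bpgm belong to the near-identical globin pairs, whose split of counts is uncertain. KO7 and KO3 are set against the same WT6 libraries. The differences of KO3 from WT6 in these 5 genes were small, with log2 fold changes from -0.28 for Bpgm to -0.11 for Hbb-bt. The number of genes lower in KO3 ran from 2 to 6 over the alternatives other than the 2-fold minimum. With the Wald test of DESeq2 only Hba-a1 and Bpgm were lower.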

How the results depend on the processing

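Counts of genes higher or lower stayed within 1.5 times in 207 of 216 checks. Checks with 0 genes in both settings count as unchanged, among them all those of the comparison of genotypes. A 2-fold minimum left 0 higher and 0 lower in KO3 against WT6, 2 higher and 0 lower in KO7 against WT0 with PBS, and 1 higher and 0 lower after ERG-245. The Wald test of DESeq2 gave 2 lower in KO3 against WT6. With single libraries left out, KO3 against WT6 gave 15 to 19 higher and 3 to 5 lower, and ERG-245 against PBS 26 higher and 1 to 2 lower. No gene that had passed turned its direction. Replicate numbers did not pair the samples (correlations of -0.0462 to 0.0321 over 30 pairs); a replicate block gave 18 higher and 5 lower in KO3 against WT6, 21 and 7 in KO7 against WT0 with PBS and 26 and 2 after ERG-245, and in the other group comparisons 32 genes still moved one way and 0 the other. The lowest count of a member in a library was 112, and the comparison of genotypes had 2 residual degrees of freedom. Of 3232 checks of single genes, 3166 kept their direction and their side of the threshold.

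Signs turned 24 times, near 0 (log2). After ERG-245 these were Slc25a37 and Ermap (-0.028 each, library totals only) and Hba-a2 (-0.11 to 0.064 with single libraries left out, and 0.10 as a pair, edgeR adjusted p = 0.00235). In KO3 against WT6 they were Gata1 (0.016) and Hemgn (0.011) in a fit of these groups alone, and, with single libraries left out, Gata1 (-0.030 to 0.038), Hemgn (-0.027 to 0.032), Slc6a9 (-0.014 to 0.066) and Klf1 (-0.0071 to 0.054). Between genotypes they were Cpox (-0.14), Tfrc (-0.0060), Slc4a1 (-0.083), Rhd (-0.018), Epor (-0.17) and Gata1 (-0.057) with ERG-245 libraries added to WT0, and Epor (-0.019 to 0.041), Cpox (-0.0080 to 0.032) and Slc6a9 (-0.048 to 0.0059) with single replicate numbers left out. Beyond what the settings change in samples or scaling, the cause was not tested.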
